A study of Mus musculus with 8 samples.

Results

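The genes described are the mouse zinc finger protein genes whose symbol is Zfp followed by a number. On the array 331 such genes had at least 1 probe set annotated to a single symbol, and 178 of them (53.8%) had a probe set above a log2 signal of 5 in at least 4 of the 8 arrays. Where several probe sets of a gene passed, the one with the highest mean was kept, so the members were chosen by their signal in these same arrays. After the same selection 9607 genes in all were measured, the 178 members included.

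All RNA came from heart ventricles of male FVB mice aged 8 to 12 weeks, taken 1 week after banding of the ascending aorta. The band narrows the vessel and raises the pressure load on the left ventricle. In the transgenic group 4 mice carried a CHF1/Hey2 transgene under the mlc2v promoter, which drives expression in ventricular muscle cells. CHF1/Hey2 belongs to the hairy-related proteins, which repress transcription. The other group was 4 wild-type mice, which were banded too, and unbanded hearts were not analysed here. Each mouse gave 1 Affymetrix Mouse Genome 430 2.0 array. The labels name neither the transgenic line nor litters or batches.

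A zinc finger is a short protein fold held together by a zinc ion, and Zfp is the mouse naming series for proteins that carry such fingers. Most members have fingers of the C2H2 kind and bind DNA. Many of these also have a KRAB domain, which recruits the corepressor Trim28 and with it enzymes that silence chromatin, mainly over retroelements. A smaller number bind RNA, such as the CCCH proteins of the Zfp36 group, which attach to AU-rich elements of messenger RNAs and lead to their decay. KRAB zinc finger genes often lie side by side in clusters that arose by duplication.

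The promoters of 4 members are shown because these genes lay far from the other arrays in 1 transgenic heart. Of the members in RefSeq's promoter table, by the deposited signals, the first 2 lay farthest below there and the last 2 farthest above. By the same measure Zfp991 and Zfp574 lay farther and are named only. The first 2 had signals below 5 there, so their order against other low members cannot be read. With the signal set at 5, Zfp638 was at least 13.6-fold lower, against 8.16-fold for Zfp280d and 8.65-fold for Zfp943. The Zfp697 signal there was 7.68, within the 5.84 to 7.87 of the other 7 arrays, so its deviation does not single out that heart. Each sequence is the 250 bases before the start site from RefSeq, build GRCm38.p6, on the strand of the gene. CG dinucleotides, which are frequent in promoters of broadly expressed genes, are in capitals.
Zfp280d, chr9:72274638-72274887, plus strand, 30 CG: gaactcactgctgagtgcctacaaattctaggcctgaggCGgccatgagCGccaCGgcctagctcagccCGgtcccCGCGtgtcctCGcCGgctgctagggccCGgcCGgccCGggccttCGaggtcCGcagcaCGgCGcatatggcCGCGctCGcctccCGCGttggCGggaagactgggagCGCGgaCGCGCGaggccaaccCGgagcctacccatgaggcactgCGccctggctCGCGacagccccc
Zfp943, chr17:21962309-21962558, plus strand, 17 CG: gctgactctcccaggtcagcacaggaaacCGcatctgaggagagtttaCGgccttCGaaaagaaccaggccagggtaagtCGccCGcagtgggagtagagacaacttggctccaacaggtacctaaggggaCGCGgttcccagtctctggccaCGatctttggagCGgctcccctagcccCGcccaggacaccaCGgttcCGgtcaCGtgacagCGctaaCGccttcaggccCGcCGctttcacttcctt
Zfp697, chr3:98382231-98382480, plus strand, 16 CG: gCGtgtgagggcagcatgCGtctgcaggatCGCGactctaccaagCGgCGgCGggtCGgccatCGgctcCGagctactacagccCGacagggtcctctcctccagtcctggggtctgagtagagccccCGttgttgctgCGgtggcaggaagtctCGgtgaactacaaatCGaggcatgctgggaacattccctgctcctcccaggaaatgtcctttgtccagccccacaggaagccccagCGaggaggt
Zfp142, chr1:74588029-74588278, minus strand, 13 CG: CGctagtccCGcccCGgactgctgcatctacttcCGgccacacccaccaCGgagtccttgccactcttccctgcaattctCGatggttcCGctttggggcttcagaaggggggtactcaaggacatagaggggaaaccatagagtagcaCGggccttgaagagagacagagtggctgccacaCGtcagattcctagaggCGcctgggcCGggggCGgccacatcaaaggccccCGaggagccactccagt

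The arrays were checked first. The only probe set of Hey2 gave log2 signals of 5.87, 5.70, 6.26 and 6.02 in transgenic replicates 1 to 4, against 5.89, 5.96, 5.68 and 6.76 in wild-type replicates 1 to 4. The groups overlapped, so this probe set did not separate them. Whether it measures the transgene is not known, so it could not check the labels, and every transgenic group below is the group labelled so. Cardiomyocyte markers were present in all arrays, with a mean log2 signal over 7 genes of 14.71 to 15.23 in transgenic and 15.11 to 15.18 in wild-type hearts. Lymphocyte, adipocyte and skeletal muscle markers passed the signal filter for 0 of 2, 0 of 2 and 0 of 4 genes on the array. In transgenic replicate 2, 3572 of 9607 genes (37.2%) differed over 2-fold in either direction when set against the median of the other 7 arrays, and in transgenic replicate 3, 891 (9.27%) did. Both arrays stand apart, and results are given with and without transgenic replicate 2.

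The Zfp genes gave moderate signals in the banded ventricle. Their mean log2 signals over the 8 arrays ran from 4.91 to 13.29, with a median of 6.90 and quartiles of 6.04 and 8.07, against a median of 8.43 and quartiles of 7.08 and 9.88 over all 9607 genes. A mean above 9 was found for 16 of 178 members (9.0%), against 38.7% of all genes. A mean below 7 was found for 94 members (52.8%), against 23.7% of all genes. In all 8 arrays 127 members (71.3%) lay above 5, against 90.4% of all genes, and without transgenic replicate 2, 165 members (92.7%) did, against 94.9% of all genes. A probe set's signal depends on its own probes as well as on its transcript, so the order of members is an order of signals. In bulk ventricle, fewer cells of a type and less RNA per cell cannot be told apart.

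The strongest signal belonged to Zfp106, an RNA-binding zinc finger protein that mice need to keep muscles innervated. Its log2 signals were 13.51, 12.18, 13.49 and 13.50 in transgenic hearts, against 13.44, 13.40, 13.30 and 13.47 in wild-type hearts. Transgenic replicate 2 was the lowest of the 8, and the other 7 arrays spanned only 13.30 to 13.51. Zfp36l1, a CCCH protein of messenger RNA decay, followed with 12.21, 11.49, 11.51 and 12.06 in transgenic hearts, against 12.32, 11.99, 11.52 and 11.77 in wild-type hearts. The groups overlapped, and transgenic replicates 2 and 3 were the lowest. Zfp91, a ubiquitin ligase with zinc fingers, had 11.43, 9.43, 11.34 and 11.63 in transgenic hearts, against 11.63, 11.38, 11.43 and 11.42 in wild-type hearts. Again 1 transgenic array was low and the other 7 lay within 11.34 to 11.63. These were the 3 members with a mean above 11.

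Another 4 members had a mean between 10 and 11. Zfp36l2, the relative of Zfp36l1, ranged from 10.44 to 11.48 in transgenic and from 10.74 to 11.01 in wild-type hearts. Zfp148, a repressor and activator that binds GC-rich promoter elements, ranged from 10.03 to 10.47 in transgenic and from 10.39 to 10.55 in wild-type hearts. Zfp622, whose human and yeast relatives act in maturation of the large ribosomal subunit, ranged from 9.71 to 10.49 in transgenic and from 9.74 to 10.26 in wild-type hearts. In each of these 3 genes the 2 groups overlapped. Zfp445, a KRAB protein that protects imprinted methylation in the mouse embryo, ranged from 6.98 to 10.69 in transgenic and from 10.26 to 10.47 in wild-type hearts. Its lowest array was again transgenic replicate 2. Zfp207 (a spindle assembly factor), Zfp46, Zfp771, Zfp871 and Zfp568 completed the 12 strongest signals, with means between 9.29 and 9.97 in transgenic and between 9.51 and 9.90 in wild-type hearts.

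**Figure D1:**
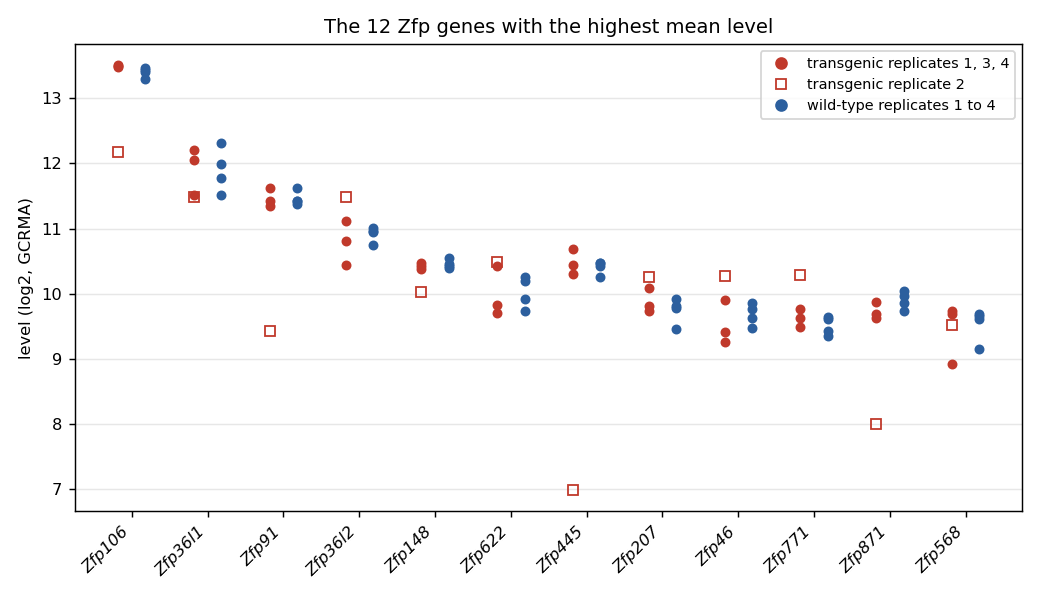
Log2 signal (vertical axis) of the 12 Zfp genes with the highest mean, with 1 point for each array and transgenic arrays left of wild-type arrays. Zfp106 lies above 12 in every array, and Zfp445 and Zfp91 each have 1 transgenic array (replicate 2) far below the other points.

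At the other end, 4 members had the lowest means. Zfp30 had log2 signals of 5.19, 2.42, 6.34 and 5.49 in transgenic hearts, against 5.41, 4.86, 4.80 and 4.81 in wild-type hearts. It was the member with the fewest arrays above 5, namely 4, and its mean was 4.91. Zfp612 (mean 5.04) and Zfp462 (mean 5.06) lay above 5 in 5 arrays. Zfp267 ranged from 4.33 to 5.01 in transgenic and from 5.01 to 5.29 in wild-type hearts. Just outside the threshold were Zfp64 (mean 5.01, above 5 in 1 array), Zfp628 (4.97, in 2) and Zfp11 (4.88, in 2). For Zfp64 and Zfp628 the highest array was transgenic replicate 2, at 6.08 and 6.01. Of the 153 Zfp genes that did not pass, 140 were below 5 in all 8 arrays, and the median of their means was 3.12.

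Most members were steady from heart to heart once transgenic replicate 2 was set aside. The median SD over arrays was 0.44 log2 units for members, against 0.40 for all genes, and without that array it was 0.22 for members, against 0.23 for all genes. Without it 129 members had an SD under 0.3 and 11 an SD over 0.5. Zfp598, the ubiquitin ligase that marks collided ribosomes, had 8.04, 8.17, 8.05 and 8.03 in transgenic hearts, against 7.97, 8.11, 8.03 and 7.88 in wild-type hearts. Zfp677 spanned 4.94 to 5.15 in transgenic and 5.13 to 5.21 in wild-type hearts. The least steady was Zfp185, whose human counterpart binds the actin cytoskeleton. Its log2 signals were 4.76, 6.31, 4.41 and 4.92 in transgenic hearts, against 5.75, 5.38, 7.58 and 6.14 in wild-type hearts.

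Zfp697, described in mouse skeletal muscle as an RNA-binding regulator of inflammation and remodelling, was the next most variable. It had 5.84, 7.68, 6.02 and 7.37 in transgenic hearts, against 6.26, 6.08, 7.87 and 7.24 in wild-type hearts. Each group held 2 arrays at 6.26 or below and 2 at 7.24 or above, with no array between. For any array of this gene, the median of the other 7 thus lies among the opposite arrays. Its deviations below therefore single out no array. The high arrays were replicates 2 and 4 of the transgenic and 3 and 4 of the wild-type hearts.

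The main departure from the family pattern was transgenic replicate 2. Here 75 members were more than 2-fold below the median of the other 7 arrays and 17 more than 2-fold above it, together 51.69% of the 178. Over all 9607 genes the shares were 20.4% below and 16.8% above. The median member lay 0.38 log2 units below the other arrays with quartiles of -1.95 and 0.55, whereas the median of all genes lay 0.28 above with quartiles of -0.70 and 0.83. In this array 92 members (51.7%) had their lowest value of the 8 and 60 (33.7%) their highest, against 31.0% and 46.8% of all genes. The number of members below a log2 signal of 5 was 44 in this array and 1 to 7 in each of the other 7. Of these 44, 42 were over 2-fold lower, and 30 remained so with the signal set at 5. All of these are descriptions of 1 array, which has no replicate.

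In the remaining arrays few members strayed. In transgenic replicate 3, 9 members (5.06%) were over 2-fold away, 4 above and 5 below, against 9.27% of all genes, 2.30% above and 6.97% below. In transgenic replicates 1 and 4 it was 1 member each (0.56%), against 1.05% and 0.926% of all genes. In wild-type replicates 1 to 4 the numbers were 0, 2, 4 and 0, against 1.12%, 0.749%, 1.55% and 0.874% of all genes. Across the 178 members, each array's signals were correlated with the median of the other 7. Pearson's r was 0.609 for transgenic replicate 2, 0.946 for transgenic replicate 3 and 0.968 to 0.984 for the others. The arrays share the probe effects of each gene, which raise all of these values, and genes are not independent replicates. Over all genes the same r was 0.838, 0.955 and 0.986 to 0.991.

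At each signal level a larger share of Zfp genes than of other genes was lower in transgenic replicate 2. Genes were binned by their mean in the other 7 arrays. Up to 6, 28.21% of members were over 2-fold lower, against 13.24% of non-members. Between 6 and 7 it was 44.90% against 15.47%, and between 7 and 8 it was 48.72% against 18.40%. The dimmest bin had the smallest share in both sets. Between 8 and 9 it was 40.62% against 22.06%, and above 9, where there were only 19 members, it was 52.63% against 22.83%. The shares over 2-fold higher were 0 to 12.82% of members and 9.12 to 27.24% of non-members over the same bins.

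**Figure D2:**
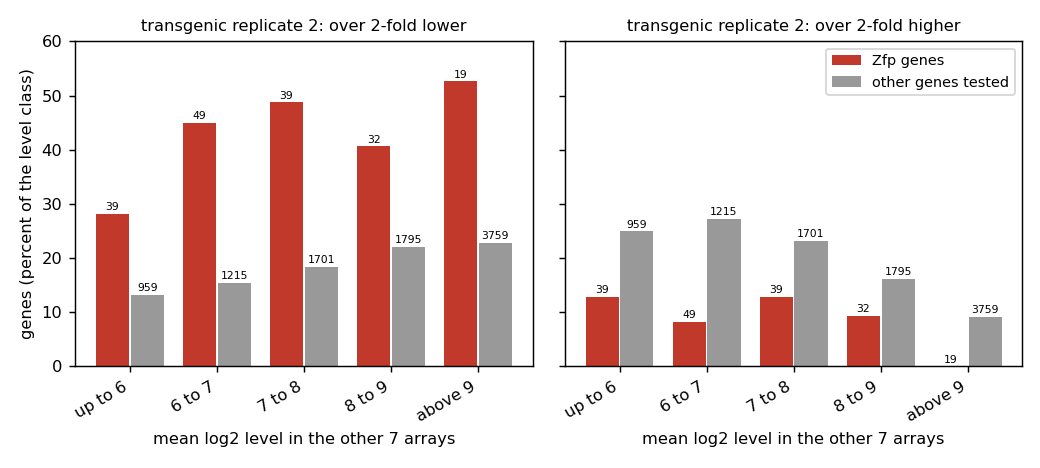
Share of genes (percent, vertical axis) over 2-fold lower and over 2-fold higher in transgenic replicate 2, by the mean log2 signal in the other 7 arrays (horizontal axis), for Zfp genes and for genes that are no member. In each of the 5 bins the Zfp genes have the larger share lower and the smaller share higher.

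Other zinc finger families differed among themselves in this array. Of 29 Zbtb genes 9 were over 2-fold lower and 5 higher, with a median of -0.15. Of 11 Klf genes, Krüppel-like activators and repressors, 5 were lower and 1 higher, with a median of -0.96. Of 10 Zkscan and Zscan genes 3 were lower and 1 higher, with a median of 0.09. Over all genes 20.4% were lower and 16.8% higher. The families are small and the differences between them were not tested.

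The 4 members with the lowest deviations in transgenic replicate 2 had signals of 3.41 or less there, near the median of 3.12 of the Zfp genes that did not pass. Zfp991 had 8.19, 2.65, 7.58 and 7.97 in transgenic hearts, against 8.03, 7.62, 7.81 and 7.85 in wild-type hearts. Zfp280d had 8.14, 2.88, 8.20 and 7.90 in transgenic hearts, against 8.22, 8.03, 7.85 and 7.96 in wild-type hearts. The other 7 arrays spanned 7.58 to 8.19 for the first gene and 7.85 to 8.22 for the second. Zfp943 had 8.06, 3.41, 8.11 and 8.20 in transgenic hearts, against 8.20, 7.84, 7.78 and 8.27 in wild-type hearts. Zfp386 had 7.73, 2.80, 7.89 and 7.45 in transgenic hearts, against 7.47, 7.41, 7.50 and 7.83 in wild-type hearts. At such signals a difference is only a bound. With transgenic replicate 2 set at 5, its signal was at least 7.19-fold lower than the median of the other arrays for Zfp991, 8.16-fold for Zfp280d, 8.65-fold for Zfp943 and 5.65-fold for Zfp386. The order among them cannot be read, nor their order against other low members, as the same bound was 13.6-fold for Zfp638. For these 4 genes the remaining transgenic hearts overlapped wild type.

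The members farthest above in that array moved less. Zfp574 had 7.54, 9.33, 8.04 and 7.94 in transgenic hearts, against 7.71, 7.74, 7.80 and 8.06 in wild-type hearts. Zfp142 had 6.64, 8.08, 6.89 and 6.99 in transgenic hearts, against 6.68, 6.67, 6.50 and 6.51 in wild-type hearts. Zfp213 had 5.61, 6.87, 6.50 and 5.52 in transgenic hearts, against 5.49, 6.14, 5.52 and 5.28 in wild-type hearts. Replicate 2 was the highest array in these 3 genes, by 1.53, 1.41 and 1.35 over the median of the others, and it was 1.42 above for Zfp697. Zfp697 was higher still in wild-type replicate 3, at 7.87 against 7.68.

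**Figure D3:**
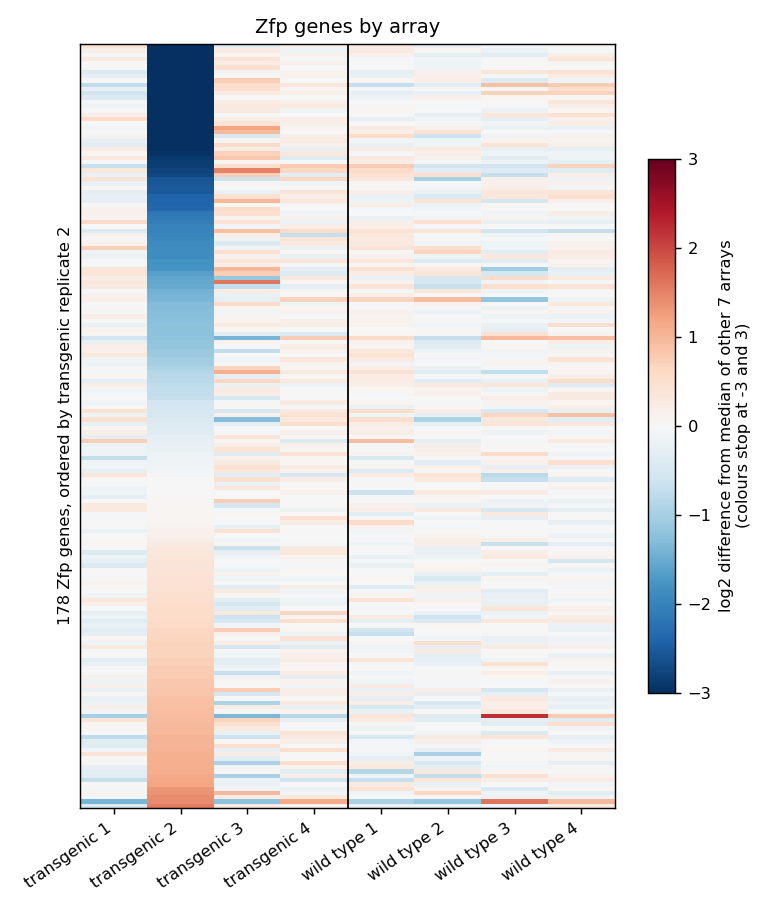
Log2 deviation (colour) of each of the 178 Zfp genes (1 line each, ordered by the deviation in transgenic replicate 2) from the median of the other 7 arrays, with transgenic arrays left of wild-type arrays. Only the column of transgenic replicate 2 shows a broad block far below 0 (75 genes under -1), and the other columns are pale.

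Other probe sets of the same genes are described next. They passed the same signal filter in the same arrays, so they are not independent of the choice of members. Another probe set passed for 55 members, 81 probe sets in all. Of the members over 2-fold lower in transgenic replicate 2, 29 had 42 other probe sets, of which 39 (92.9%) were below 0 and 30 (71.4%) over 2-fold lower. For genes that are no member these shares were 90.6% and 67.4%. All passing probe sets were over 2-fold lower for 22 members. Zfp281 was at -2.55 and -2.80 with its 2 probe sets. Of the members over 2-fold higher, 5 had 8 other probe sets, of which 7 (87.5%) were above 0 and 0 over 2-fold higher, against 95.3% and 62.6% for genes that are no member.

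For 12 members the passing probe sets lay on both sides of 0. Zfp148 had 6 probe sets between -2.33 and 0.38, the kept one at -0.38. Zfp207 had 5 between -2.93 and 0.45, the kept one at 0.45. The kept probe set of Zfp655 was at 0.96 and its other 2 at -1.25 and -1.24. For Zfp142, named above among the members farthest above, the kept one was at 1.41 and the other 2 at 0.90 and -0.70. Zfp991 had a second probe set at -0.15, although its kept one was near background in that array. Probe sets of a gene can measure different transcript ends, and 32 of the 81 differed from the kept one by over 2-fold.

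In transgenic replicate 3, 6 of the 9 departing members were over 2-fold away in transgenic replicate 2 as well, against 51.69% of all members. With replicate 2 set at 5, Zfp30, Zfp612, Zfp37 and Zfp354c were at least 1.14-, 1.06-, 1.63- and 1.88-fold lower there. For Zfp51 this bound was 2.49-fold. The 9 are named here after their values were seen. Zfp612 had 5.36, 3.55, 6.63 and 5.08 in transgenic hearts, against 5.13, 4.58, 4.95 and 5.03 in wild-type hearts. Zfp30, Zfp51 and Zfp799 were also high in replicate 3, by 1.48, 1.18 and 1.10 over the median of the other arrays. In these 4 genes replicate 3 was the highest of the 8 arrays and replicate 2 the lowest, at signals below 5. Zfp37, Zfp185, Zfp608, Zfp697 and Zfp354c were low in replicate 3, at -1.40, -1.35, -1.30, -1.22 and -1.13. The replicate 3 signals of Zfp37, Zfp185 and Zfp354c were 4.30, 4.41 and 4.79, all below 5. With replicate 3 set at 5, these genes would not be over 2-fold lower. The value of Zfp697 only places replicate 3 among its low arrays. Against the median of the other 6 arrays, 75 members were over 2-fold lower in replicate 2, and 50 of these lay above 0 in replicate 3, with a median of 0.11. Over all genes 956 of the 1972 lower ones did so, with a median of -0.01.

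Wild-type replicate 3 held most of the wild-type departures. Zfp185 was 2.20 and Zfp697 1.61 above the median of the other arrays there, and Zfp462 and Zfp930 were below it, at -1.16 and -1.06. The Zfp462 signal there was 4.05, below 5. In wild-type replicate 2, Zfp697 and Zfp810 were the 2 members below. Zfp697 was the only member over 2-fold away in transgenic replicate 1 (-1.39) and in transgenic replicate 4 (1.11). Its low and high arrays are equally many, so its deviations here single out no array.

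Other values moved with these arrays, and their part in the Zfp values was not tested. In transgenic replicate 2 the median deviations were 0.91 for 4 endothelial, 0.82 for 3 smooth muscle, 0.96 for 4 macrophage and 0.64 for 4 atrial markers, and -0.29 for 7 cardiomyocyte and 5 fibroblast markers each. Against the sign of their lists, endothelial Kdr (-0.38), smooth muscle Myh11 (-0.49) and atrial Nppa (-0.06) lay below 0. The fibroblast genes Col1a1 (0.32) and Col1a2 (0.38) and cardiomyocyte Actc1 (0.01) lay above 0. The mean signal of the endothelial list was 9.68 in that heart and 9.01 to 9.68 over transgenic hearts, against 8.70 to 9.36 in wild-type hearts. In transgenic replicate 3 the fibroblast list had a median deviation of -2.94, with a mean signal of 10.98 in that heart, against 13.04 to 13.35 in wild-type hearts. The list was split: Col1a1, Postn and Col1a2 were at -3.63, -3.36 and -2.94, but Pdgfra and Dcn at -0.58 and -0.34. The atrial list was at 0.53 there, with Nppa at -2.11 and its other genes above 0. The macrophage list was at -1.19 there. The 1 measured erythroid gene was at 1.22 in transgenic replicate 2 and 1.27 in transgenic replicate 3. The 3 prime minus 5 prime difference, a sign of RNA integrity, was -0.27 for Gapdh in transgenic replicate 2 and -0.28 to -0.11 in the other arrays. For beta-actin it was 0.62 in transgenic replicate 2, the smallest of the 8, and 0.78 to 1.21 in the others.

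The transgenic minus wild-type comparison asked whether CHF1/Hey2 in the muscle changed Zfp transcripts after banding. The limma fit over all 9607 genes called 0 members and 0 genes (0.00% of genes) at an adjusted p of 0.05. At an unadjusted p of 0.05 it picked 0 of 178 members and 153 of 9607 genes (1.59%), and the smallest adjusted p was 0.813 for members and for all genes. The transgenic mean was higher in 71 members and lower in 107, against 57.0% of all genes higher. The median difference was -0.10 over members, against 0.06 over all genes. Without transgenic replicate 2 the split was 94 higher and 84 lower with a median of 0.01, against 55.9% higher and a median of 0.03 for all genes. A difference of a given size could be missed: the median half-width of the 95% interval was 0.675 log2 units for members.

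The transgenic group was the more widely spread. The median member SD was 0.59 in transgenic hearts, against 0.18 in wild-type hearts, and the transgenic value was 0.23 without replicate 2. In 9 of 178 members the group means lay over 2-fold apart, all 9 with the transgenic mean lower. Over all genes 1.48% lay so far apart, and 1.34% did so with the transgenic mean lower. These were Zfp948, Zfp280d, Zfp991, Zfp52, Zfp185, Zfp386, Zfp943, Zfp638 and Zfp946, at -1.25 to -1.06. Without transgenic replicate 2 only Zfp185 stayed beyond 1, at -1.52, against 0.822% of all genes. Its difference was -1.11 with all arrays and -0.66 without wild-type replicate 3, its highest array. Zfp346, which binds double-stranded RNA, was the 1 member of 178 whose groups did not overlap. Of all genes 2.48% did not overlap, 2.00% with the transgenic group higher and 0.479% with it lower. It had 8.07, 8.48, 8.18 and 8.08 in transgenic hearts, against 8.06, 7.87, 7.79 and 8.03 in wild-type hearts, a difference of 0.26 ± 0.16 (SE) with an adjusted p of 0.813 in limma.

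The members with the smallest p in each direction did not pass either. Zfp784 had 5.53, 6.21, 5.32 and 5.14 in transgenic hearts, against 5.07, 4.17, 5.15 and 5.09 in wild-type hearts. Its difference was 0.68 ± 0.31 (SE, n = 4 each) with a limma p of 0.0549, and the groups overlapped. The other 5 with a higher transgenic mean were Zfp655, Zfp672, Zfp513, Zfp142 and Zfp553, with differences between 0.39 and 0.56. Without transgenic replicate 2 these 6 differences were between 0.21 and 0.46. Zfp995 averaged 6.55 ± 0.52 in transgenic hearts, from 5.83 to 7.06, against 7.15 ± 0.20 in wild-type hearts (SD, n = 4 each), a difference of -0.59 ± 0.27 (SE). The highest wild-type heart had 7.44. The other 5 with a lower transgenic mean were Zfp185, Zfp267, Zfp37, Zfp949 and Zfp871, between -1.11 and -0.41. Without transgenic replicate 2 these 6 lay between -1.52 and -0.17.

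**Figure D4:**
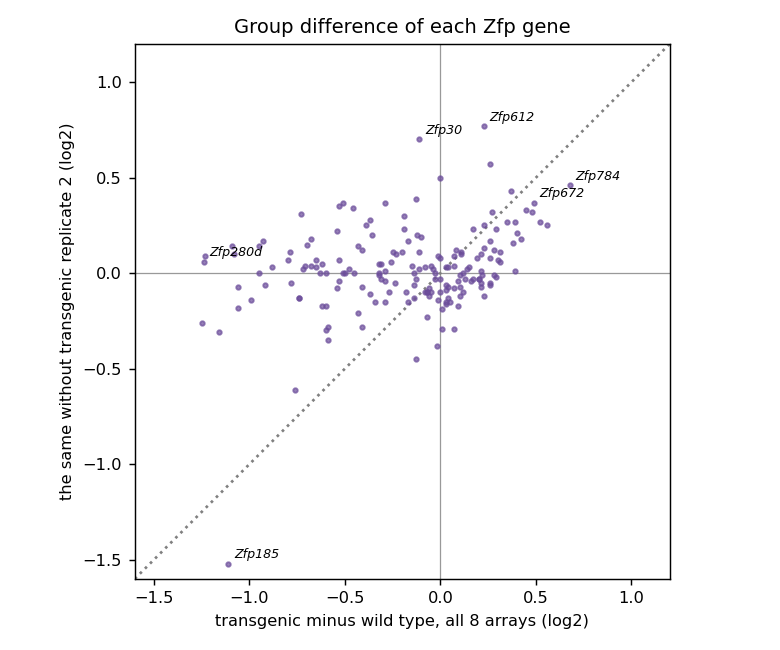
Difference in mean log2 signal, transgenic minus wild type, of each of the 178 Zfp genes with all 8 arrays (horizontal axis) and without transgenic replicate 2 (vertical axis). The members spread to -1.25 on the horizontal axis, and without that array only Zfp185 (-1.52) lies beyond 1 in either direction.

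By role, no list had a member past the test, and 0 had an unadjusted p under 0.05 in any of the lists below. The differences below rest in most cases on transgenic replicate 2. Without it the list medians were -0.13 for messenger RNA decay, 0.02 for RNA and translation, -0.05 for promoter binding, 0.03 for cell fate and 0.04 for silencers. They were -0.02 for the KRAB corepressor and 0.05 for the deadenylation machinery, and over all genes 0.03. Of the 3 messenger RNA decay factors measured, 1 had a higher and 2 a lower transgenic mean, with a median of -0.02. Zfp36, tristetraprolin, which limits inflammatory cytokine messages, had 7.97, 9.66, 8.52 and 8.11 in transgenic hearts, against 8.00, 8.87, 8.69 and 8.75 in wild-type hearts. Its highest array was transgenic replicate 2, and the other transgenic hearts lay below 3 of the 4 wild-type hearts. Zfp36l1 and Zfp36l2 differed by -0.08 ± 0.25 and 0.04 ± 0.23 (SE). The 3 did not share a direction in transgenic replicate 2, where they lay at 1.15, -0.51 and 0.53.

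The partner machinery of these factors was split as well. Of 14 genes of deadenylation and decay, 7 had a higher and 7 a lower transgenic mean, with a median of -0.05. In transgenic replicate 2, 5 of the 14 were over 2-fold lower and 0 higher, against 20.4% and 16.8% of all genes. Cnot6, a deadenylase subunit, had 9.95, 6.69, 9.59 and 9.99 in transgenic hearts, against 10.03, 9.81, 10.28 and 10.09 in wild-type hearts. Pabpc1, the poly(A)-binding protein, ranged from 11.63 to 12.55 in transgenic and from 12.33 to 12.66 in wild-type hearts. Cnot9 and the decapping factor Dcp1a had higher transgenic means, by 0.41 ± 0.22 and 0.28 ± 0.20 (SE), and by 0.22 and 0.12 without transgenic replicate 2.

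The 8 members that act on RNA and translation held 5 with a higher and 3 with a lower transgenic mean, with a median of 0.08. The 3 lower ones were low in transgenic replicate 2. Zfp638, which binds nucleic acid and in human cells silences unintegrated retroviral DNA, had 8.48, 4.75, 8.76 and 8.82 in transgenic hearts, against 8.56, 8.85, 8.69 and 8.93 in wild-type hearts. Zfp326, which couples elongation by RNA polymerase to splicing, had 7.65, 4.19, 8.36 and 7.93 in transgenic hearts, against 7.82, 7.89, 7.85 and 8.36 in wild-type hearts. Zfp106 is described above. Zfp385a, an RNA-binding partner of p53, ranged from 6.58 to 7.98 in transgenic and from 6.07 to 7.15 in wild-type hearts. Zfp207, Zfp346, Zfp598 and Zfp622 differed by 0.07 to 0.26.

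Of the 6 promoter-binding members, 3 had a higher and 3 a lower transgenic mean, with a median of -0.06. Zfp281, which binds GC-rich promoters in stem cells, had 8.31, 5.95, 8.54 and 8.36 in transgenic hearts, against 8.50, 8.46, 8.58 and 8.60 in wild-type hearts. Zfp335, part of a histone methyltransferase complex, had 7.36, 8.32, 7.37 and 7.48 in transgenic hearts, against 7.22, 7.45, 7.69 and 7.39 in wild-type hearts. Replicate 2 was thus the lowest array for the first gene and the highest for the second. Zfp384 and Zfp219, a partner of Sox9 in cartilage, differed by 0.10 ± 0.20 and 0.01 ± 0.25 (SE).

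Of 11 cell fate and signalling members on the array 7 were measured, 5 with a higher and 2 with a lower transgenic mean, and the median was 0.15. Zfp521, a progenitor factor that binds Ebf1, had 8.28, 9.05, 7.78 and 8.40 in transgenic hearts, against 8.42, 8.02, 8.04 and 8.22 in wild-type hearts. Zfp703, a corepressor amplified in human breast cancer, had 8.37, 9.43, 8.22 and 8.92 in transgenic hearts, against 8.39, 8.24, 8.46 and 8.64 in wild-type hearts. Its relative Zfp503 ranged from 5.17 to 5.93 in transgenic and from 5.52 to 5.77 in wild-type hearts. Zfp467, which favours fat over bone formation in marrow stroma, ranged from 5.84 to 7.29 in transgenic and from 5.56 to 6.41 in wild-type hearts. Zfp516, an activator of Ucp1 in brown fat, Zfp217 and Zfp462 differed by 0.15, 0.11 and -0.25. Transgenic replicate 2 was the highest array for Zfp521, Zfp703, Zfp467 and Zfp516.

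All 3 measured silencers of retroelements and imprints had a lower transgenic mean, with a median of -0.71. When transgenic replicate 2 was left out, 2 were higher and 1 lower. Zfp445 had 10.44, 6.98, 10.69 and 10.30 in transgenic hearts, against 10.47, 10.42, 10.26 and 10.47 in wild-type hearts. Zfp809, which silences mouse leukaemia proviruses, had 7.47, 4.81, 8.21 and 7.80 in transgenic hearts, against 7.57, 7.68, 8.06 and 7.82 in wild-type hearts. Both were low in 1 transgenic array, and the other 3 overlapped wild type. Zfp568, which represses a placental Igf2 transcript in the mouse embryo, had 8.92, 9.52, 9.74 and 9.69 in transgenic hearts, against 9.15, 9.65, 9.69 and 9.61 in wild-type hearts. Here replicate 2 lay within the other arrays.

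Of 23 genes of the KRAB corepressor machinery on the array 21 were measured, 8 with a higher and 13 with a lower transgenic mean, and the median was -0.10. In transgenic replicate 2, 7 of the 21 were over 2-fold lower and 2 higher, against 20.4% and 16.8% of all genes. Trim28 itself, the protein that KRAB domains bind, had 10.04, 10.91, 9.89 and 10.11 in transgenic hearts, against 9.96, 10.06, 10.11 and 9.94 in wild-type hearts. Setdb1, the histone methyltransferase it brings, spanned 6.97 to 7.08 in transgenic and 6.97 to 7.12 in wild-type hearts. The chromatin remodeller Smarcad1 had 7.58, 5.49, 7.58 and 7.76 in transgenic hearts, against 7.88, 7.69, 7.74 and 7.62 in wild-type hearts. Morc3, Pphln1 of the HUSH complex, and the heterochromatin protein Cbx1 differed by -0.40, -0.37 and -0.51, and by -0.07, -0.02 and 0.00 without transgenic replicate 2. In these 4 genes replicate 2 was the lowest array.

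Position and promoter were properties the choice of members did not use. By the gene order of GRCm38.p6, 72 members had another Zfp gene as the nearest protein-coding neighbour on at least 1 side. Of these, 35 (48.61%) were over 2-fold lower in transgenic replicate 2 and 5 higher, with a median of -0.90. Of the 106 other members 40 (37.74%) were lower and 12 higher, with a median of -0.03. Over all genes 20.4% were lower and 16.8% higher. At signals up to 7 in the other 7 arrays, 19 of 40 neighbouring members were lower, against 14 of 48 others. The medians there were -0.81 and 0.04. Above 7 it was 16 of 32 against 26 of 58, so the shares lay closer, with medians of -1.07 and -0.44. Neighbouring members are related in sequence and can share probes, so they are not independent, and these differences were not tested.

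Promoter windows from RefSeq were found for 140 members, 176 windows in all. The median GC content of the 250 bases before the start was 57.2% for members, against 60.4% for the other genes measured and 52.4% for all 32851 windows. It was 54.4% for 77 windows of members over 2-fold lower in transgenic replicate 2, 60.4% for 85 windows of members within 2-fold and 63.8% for 14 windows of members over 2-fold higher. Among the other genes measured it was 61.6% for those lower and 59.6% for those higher. The promoters printed above had 72.4% (Zfp280d), 60.8% (Zfp943), 62.8% (Zfp697) and 61.6% (Zfp142), so both of the lower genes were above the median of their class. The letters CACGTG or CACGCG, to which proteins of the hairy-related family bind, were searched on both strands. They were in 15.3% of member windows, against 21.8% of windows of other genes measured and 12.9% of all windows. By class, the letters were in 14 of 77 windows of members over 2-fold lower in transgenic replicate 2. They were in 13 of 85 windows of members within 2-fold and in 0 of 14 of members over 2-fold higher. Among the other genes measured they were in 437 of 1934 windows of those lower and 342 of 1706 of those higher. These differences were not tested. The Zfp943 window held CACGTG and the Zfp280d window CACGCG.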

How the data were processed

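Total RNA of 8 banded mouse ventricles was hybridised to 1 array each. The authors deposited log2 signals, and GCRMA is named in the submitters' processing notes (version not given in the sources used here); it corrects background by probe base composition, normalizes by quantiles and summarizes probe sets. It pulls dim probe sets to a common low level, so differences near that level are hard to read. The values ran from 0.84 to 16.11. Of 45101 probe sets, 64 controls were left out, 34945 had 1 gene symbol, 932 several and 9211 none, by GEO's platform annotation. All 178 members matched RefSeq by Entrez identifier and 0 symbols changed. Probe sets of 1 symbol above 5 in at least 4 arrays numbered 16017, for 9607 genes. An array's deviation is its log2 signal minus the median of the other 7, and over 2-fold is over 1 log2 unit.

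Groups came from the sample titles. Transgenic minus wild type was tested by lmFit and eBayes of limma 3.58.1 (R 4.3.3), Benjamini-Hochberg adjusted over all 9607 genes, and tested on simulated data first. Arrays carry no depth, so precision rests on how many there are. Alternatives changed the filter, scaling, probe set rule, model and threshold, or left out arrays. Members, lists and tests were chosen with earlier results of these data known. Genes were named as the 12 highest and 4 lowest means, the 6 smallest p in each direction, list members, the 4 farthest each way in an array with at least 20% of members over 2-fold away, up to 4 partner genes a list by p, and 3 genes on each side of the threshold. Replicate numbers are shared by the groups, and the correlations of same-numbered deviations were 0.30, -0.01, -0.33 and 0.20. Replicates 1 and 4 correlated best with their own number, and replicates 2 and 3 did not. Transgenic replicates 2 and 3 stand apart from the other arrays, so this check cannot decide whether the numbers pair the samples. No pairing was used in the reported fit.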

Additional observations from a re-analysis of the deposited data

Results flagged for a closer look

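In each group of 4 arrays, a value was singled out when its gap to the nearest other array was above Dixon's 95% limit relative to the group's range. Chance singles out about 5% of groups. Among the 178 members, 46 (25.8%) had such a transgenic array, 43 of them (24.2%) replicate 2, and 17 (9.6%) had such a wild-type array. Over all 9607 genes the shares were 17.1%, 15.5% and 6.6%.

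In transgenic replicate 2 the share of members over 2-fold away (51.69%), the median deviation (-0.38) and the number of members over 2-fold lower (75) each stood far from the other transgenic arrays. Among RNA-binding and RNA-linked members its log2 signal was 12.18 for Zfp106, 4.19 for Zfp326, 4.75 for Zfp638 and 8.17 for Zfp598. Of the promoter-binding and cell fate members it was 9.43 for Zfp91, 5.95 for Zfp281, 8.32 for Zfp335, 6.27 for Zfp516 and 7.29 for Zfp467. It was 6.98 for Zfp445 and 8.00 for Zfp871. The 4 members with the lowest deviations, Zfp991, Zfp280d, Zfp943 and Zfp386, stood at 2.65, 2.88, 3.41 and 2.80. Of the partner genes, Smarcad1 had 5.49, Pphln1 6.54, Cnot6 6.69 and Dcp1a 8.61. Zfp64 and Zfp628, just outside the signal threshold, had 6.08 and 6.01.

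Wild-type arrays were singled out for 6 of the named genes. Replicate 1 stood apart for Zfp568 (9.15), Zfp30 (5.41) and Zfp655 (8.79). Replicate 2 stood apart for Zfp784 (4.17) and Zfp949 (6.99), and replicate 4 for Zfp326 (8.36).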

How the results depend on the processing

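The number of members past the adjusted p of 0.05 was 0 in every alternative run. Members at an unadjusted p under 0.05 numbered 0 in the reported fit, 1 after quantile normalization, 4 of 331 without a filter, 3 without transgenic replicates 2 and 3 together, and 0 to 5 when each array was left out in turn (5, 3, 1 and 4 without transgenic replicates 1 to 4, 2 without wild-type replicate 2 and 0 without each other wild-type array). With array weights, which put transgenic replicate 2 at 0.0519, there were 23, beside 15.92% of all genes, and the smallest adjusted p of a member was 0.215. With the replicate number as a block there was 1, and whether the numbers pair the samples is not known. Of 231 differences of 12 named genes under the alternatives 230 kept their direction, and Zfp655 turned to -0.11 with the mean of its probe sets. The share of members over 2-fold away in transgenic replicate 2 was 31.4% without a filter and 24.2% at 4-fold. In transgenic replicate 3 it was 3.3% without a filter, 1.1% for probe sets above 7, 20.2% at 1.5-fold and 0.0% at 4-fold. When another array was left out of the median, it was 50.6% to 52.2% in replicate 2 and 4.5% to 7.3% in replicate 3. The looser or stricter cut-off itself sets the values at 1.5-fold and 4-fold, and the cause of the others was not tested. Dim probe sets limit what can be read near a log2 signal of 5.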
